A study of Homo sapiens with 18 samples.

Results

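The kinesin genes were taken as every row of the deposited gene count table whose symbol is KIF followed by a number and at most 1 letter from A to C, or KIFC1, KIFC2 or KIFC3. The rule found 42 genes among 39496. The libraries are mRNA sequencing of the bladder cancer lines UM-UC-3 and T24, which are established human lines. Cells had received siNC, the control siRNA, or either siACAT1-1 or siACAT1-2, which target ACAT1. The labels give siNC cells as wild type and the others as ACAT1 knockdown, and each of the 6 groups of cell line and siRNA had 3 libraries, called biological replicates 1 to 3. Each line is a single cultured line, the knockdown is transient, and ACAT1, a mitochondrial acetyl-CoA acetyltransferase, was lowered and not deleted.

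Kinesins are motor proteins that use ATP to walk along microtubules or to take microtubules apart. One group builds the mitotic spindle, moves chromosomes and completes cell division, and the genes of that group are transcribed mainly in G2 phase and mitosis, so their mRNA is usually read beside proliferation. Another group carries vesicles, organelles and mRNA along microtubules, and some serve the cilium. By these roles, 14 of the 42 genes were placed among the mitotic kinesins, 13 among the transport motors, 10 among the ciliary motors and 5 under other roles. A filter on low counts kept 37 genes for testing, of which 13 were mitotic and 24 were not.

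Promoters of genes that peak in G2 phase and mitosis often hold a CHR element (TTTGAA) a short way downstream of CCAAT boxes. Both motifs were searched on both strands in the RefSeq promoters of GRCh38.p14, which cover 250 bases before and 50 after 1 annotated start of each gene and matched 34 of the 42 kinesins. That start can lie away from the counted gene. The KIF5C promoter is chr2:148947625-148947924, but its counted exons begin at 148875250. The KIF24 promoter is chr9:34329219-34329518, but its counted exons on the minus strand begin at 34311371. TTTGAA stood in 10 of 14 mitotic kinesin promoters (71.4%), in 1 of 20 promoters of the other kinesins (5%) and in 15.4% of all 27305 promoters. CCAAT stood in 11 of the 14 (78.6%), in 6 of the 20 (30%) and in 35.7% of all promoters, and both motifs together stood in 9 of the 14 (64.3%), in 1 of the 20 and in 6.08% of all promoters. KIF4A and its intronless relative KIF4B have nearly the same letters around their matches, and both count in the 10, the 11 and the 9. A match is a description of the letters and not a test of binding. Only the exact letters TTTGAA and CCAAT were searched, so a promoter without TTTGAA is not shown to lack a CHR element. No matches overlap in the windows shown. The 6 windows that follow show the arrangements found among the kinesins that the results turn on, from 100 bases before to 20 after the start, 5′ to 3′ on the strand of the gene, with each TTTGAA and CCAAT in capitals and in the reverse complement where the motif lies on the other strand, as TTCAAA for the first motif and as ATTGG for the second. KIF18A, KIF4A and KIF11 hold 1 of each, KIF15 holds TTTGAA alone, KIF20A holds CCAAT alone and KIF2C holds neither.
KIF18A, chr11:28108137-28108256, minus strand: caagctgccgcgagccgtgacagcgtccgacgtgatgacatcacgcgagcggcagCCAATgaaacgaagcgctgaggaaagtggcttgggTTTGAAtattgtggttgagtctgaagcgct
KIF4A, chrX:70290004-70290123, plus strand: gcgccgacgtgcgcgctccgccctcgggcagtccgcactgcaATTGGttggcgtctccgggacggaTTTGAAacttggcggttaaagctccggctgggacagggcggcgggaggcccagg
KIF11, chr10:92593030-92593149, plus strand: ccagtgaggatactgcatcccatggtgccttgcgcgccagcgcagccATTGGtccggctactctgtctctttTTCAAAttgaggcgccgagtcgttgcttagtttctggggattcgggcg
KIF15, chr3:44761694-44761813, plus strand: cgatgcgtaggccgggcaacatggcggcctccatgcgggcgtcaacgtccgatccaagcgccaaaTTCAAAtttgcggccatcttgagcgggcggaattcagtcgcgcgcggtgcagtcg
KIF20A, chr5:138179012-138179131, plus strand: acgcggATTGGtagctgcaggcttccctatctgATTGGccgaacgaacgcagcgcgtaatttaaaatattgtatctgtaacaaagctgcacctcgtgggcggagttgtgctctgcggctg
KIF2C, chr1:44739737-44739856, plus strand: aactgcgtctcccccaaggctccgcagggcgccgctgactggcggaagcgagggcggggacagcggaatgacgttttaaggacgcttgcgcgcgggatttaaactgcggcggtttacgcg

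The libraries held 25163490 to 34417230 counted reads, with a median of 28613163. Levels are given as the deposited RPKM (reads scaled to exon length and to the total counted in the library), in the order replicate 1, 2 and 3. ACAT1 stood at 47.4, 46.5 and 44.1 RPKM in siNC UM-UC-3 cells and at 2.25, 3.60 and 3.29 with siACAT1-1 and 1.83, 2.79 and 1.86 with siACAT1-2. In T24 cells it stood at 16.8, 14.6 and 17.1 with siNC, at 1.24, 1.46 and 1.17 with siACAT1-1 and at 0.789, 0.916 and 0.671 with siACAT1-2. The targeted gene was lower in each knockdown library than in any siNC library of its line, by 4.09 on the log2 scale in the mean of the 4 comparisons with siNC (standard error, SE, 0.12, edgeR quasi-likelihood test, adjusted p = 2.1e-12). Of the 10 urothelial markers in the table, 0 in UM-UC-3 and 2 in T24 (PPARG and FOXA1) had a median over 1 RPKM, and of 6 epithelial markers 3 and 5 did, while 4 and 5 of 5 mesenchymal markers did. Of 8 markers of immune, endothelial and muscle cells, CD68 passed that level in both lines and ACTA2 in T24.

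Libraries with the same replicate number within a line deviated together, though only weakly for UM-UC-3 replicate 1 (correlations of 0.115 to 0.169). Each comparison was therefore fitted without and with the replicate number within a line as a block, and both are given where they differ. A gene is called below at an adjusted p under 0.05 over all 20144 genes tested, and "fell" and "rose" are used with the fit that gave the call. The share of all genes called was counted in these edgeR fits alone and not under other settings. Counts of kinesins under other settings therefore have no share beside them. All libraries are bulk samples, in which fewer dividing cells and less of an mRNA per cell cannot be told apart.

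All 13 mitotic kinesins tested had a lower mean estimate after ACAT1 knockdown, and most passed the test only in the fit with the replicate block. In the mean of the 4 comparisons, edgeR called 0 of 37 kinesins without the block, where 0.223% of all genes were called, and DESeq2 called 0 as well. In that edgeR fit 6 kinesins had an unadjusted p under 0.05, 5 of them mitotic, beside 2201 of 20144 genes. With no filter on low counts edgeR called 3 without the block, KIF15, KIF20A and KIF2C. With the block it called 14 kinesins, where 12.4% of all genes were called, and 12 of the 14 were mitotic and lower (6.46% of all genes were lower) and 2 were higher (5.95%). All 13 mitotic kinesins tested had a negative log2 fold change in both fits, with a median of -0.41 without the block and -0.43 with it, against 0.09 for the 24 other kinesins and -0.0013 for all genes without the block. The roles were assigned with earlier results of these data known, so these counts and medians are a description. KIF2A, a depolymerase of neurons and spindle poles, was placed under other roles, and the 13 of 13 depends on that placement. The 13 also include KIF4B, which had at most 18 counts in any library and lay below siNC in 6 of 12 pairs. The 3 tested kinesins of other roles were positive in both fits. KIF26A, 1 of the 3, had almost no counts in T24, so its positive mean is not firm. In UM-UC-3 it lay below siNC in 6 of 6 pairs (log2 ratio -0.93 to -0.42). KIF2A lay below the siNC library of its line and number in 4 of 12 pairs.

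KIF15 and KIF11 both push the spindle poles apart, KIF11 (Eg5) by sliding antiparallel microtubules and KIF15 beside it. KIF15 in UM-UC-3 cells stood at 36.1, 31.2 and 25.9 RPKM with siNC, at 29.1, 26.8 and 17.7 with siACAT1-1 and at 21.6, 23.7 and 14.7 with siACAT1-2. In T24 cells it stood at 35.2, 12.8 and 23.8 with siNC, at 16.2, 8.08 and 12.2 with siACAT1-1 and at 18.1, 5.87 and 15.1 with siACAT1-2. Each of the 12 knockdown libraries lay below the siNC library of the same line and number, although the groups overlapped in 3 of the 4 comparisons, the exception being siACAT1-2 in UM-UC-3. The mean log2 fold change of KIF15 was -0.71 (SE 0.25, adjusted p = 0.303) without the block and -0.71 (SE 0.08, adjusted p = 1.45e-05) with it.

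KIF11 in UM-UC-3 cells stood at 35.8, 37.6 and 23.2 RPKM with siNC, at 37.2, 33.4 and 22.7 with siACAT1-1 and at 35.8, 30.7 and 22.6 with siACAT1-2, with 93.4% of its variance between replicate numbers and 3.85% between siRNAs. In T24 cells it stood at 68.9, 40.7 and 46.1 with siNC, at 31.3, 25.5 and 22.7 with siACAT1-1 and at 41.1, 19.6 and 42.8 with siACAT1-2, so the siACAT1-1 group lay wholly below siNC. Its mean log2 fold change was -0.44 (SE 0.19, adjusted p = 0.422) without the block and -0.43 (SE 0.10, adjusted p = 0.00578) with it. KIFC1 (HSET), a minus-end motor that focuses spindle poles and clusters extra centrosomes, stood in T24 cells at 55.2, 19.8 and 46.2 RPKM with siNC, at 32.6, 13.5 and 26.6 with siACAT1-1 and at 44.2, 11.2 and 36.9 with siACAT1-2. In UM-UC-3 KIFC1 stood at 42.3, 43.2 and 31.5 with siNC, at 34.6, 47.4 and 21.4 with siACAT1-1 and at 40.2, 42.7 and 21.4 with siACAT1-2. The groups of KIFC1 overlapped in every comparison with siNC, and its mean log2 fold change of -0.37 (SE 0.30, adjusted p = 0.720) passed the test with the block alone (-0.41, SE 0.09, adjusted p = 0.00428). Without T24 siNC replicate 1 the unblocked mean was -0.196 for KIFC1 and -0.282 for KIF11, and likewise -0.231 for KIF18B, -0.167 for KIF23 and -0.115 for KIF22, which was -0.448 without T24 siNC replicate 2.

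Among the kinesins that act on chromosomes and microtubule ends, KIF2C (MCAK), a depolymerase at the centromere that helps to correct wrong attachments, stood in T24 cells at 48.5, 43.3 and 49.6 RPKM with siNC, at 25.8, 19.4 and 30.2 with siACAT1-1 and at 35.6, 14.7 and 38.9 with siACAT1-2. In UM-UC-3 it stood at 82.2, 72.3 and 83.4 with siNC, at 76.3, 77.0 and 64.4 with siACAT1-1 and at 66.9, 64.8 and 55.0 with siACAT1-2. The knockdown groups of KIF2C lay wholly below siNC in 3 of the 4 comparisons, siACAT1-1 in UM-UC-3 being the exception. Its mean log2 fold change was -0.51 (SE 0.17, adjusted p = 0.275), or -0.55 (SE 0.10, adjusted p = 0.00118) with the block.

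KIF18A, which dampens chromosome movements at the plus ends of kinetochore microtubules, had the smallest share of its variance between replicate numbers of the mitotic kinesins in T24 cells (5.99%). It stood there at 6.93, 7.76 and 5.67 RPKM with siNC, at 3.89, 4.25 and 3.80 with siACAT1-1 and at 4.98, 3.92 and 4.90 with siACAT1-2, and neither siRNA group overlapped with siNC. In UM-UC-3 cells KIF18A stood at 9.08, 6.92 and 7.98 with siNC, at 10.1, 6.77 and 6.57 with siACAT1-1 and at 7.03, 6.86 and 6.03 with siACAT1-2, and both groups overlapped with siNC. Its mean log2 fold change was -0.41 (SE 0.11), with the lowest adjusted p of all kinesins without the block (0.174), and -0.41 (SE 0.08, adjusted p = 0.00349) with it.

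KIF18B, which limits the length of astral microtubules, stood at 5.64, 2.01 and 4.43 RPKM with siNC in T24, at 3.08, 1.05 and 2.29 with siACAT1-1 and at 4.41, 0.915 and 3.98 with siACAT1-2. KIF4A, a chromokinesin that stops microtubule growth in the spindle midzone, stood there at 42.1, 25.0 and 32.0, then at 25.4, 14.2 and 20.3 and at 31.6, 11.5 and 28.5 in the same order of siRNAs. KIF22 (Kid), which pushes chromosome arms to the spindle equator, stood at 24.4, 8.69 and 22.5 with siNC, at 17.4, 7.83 and 15.8 with siACAT1-1 and at 20.7, 7.84 and 18.5 with siACAT1-2. In these 3 genes replicate 2 of each T24 group was the lowest of its group.

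In UM-UC-3 cells the 3 genes were lowest in replicate 3 of each group. KIF18B stood at 6.57, 5.82 and 4.65 RPKM with siNC, at 5.64, 6.12 and 3.32 with siACAT1-1 and at 5.97, 5.49 and 3.27 with siACAT1-2. KIF4A stood at 75.5, 87.6 and 58.5, then at 78.5, 76.8 and 46.2 and at 70.5, 67.5 and 45.3. KIF22 stood at 15.8, 15.8 and 14.7, then at 14.3, 16.7 and 9.20 and at 14.5, 16.0 and 10.3. All 3 fell with the block, by 0.47 for KIF18B (SE 0.10, adjusted p = 0.00357), by 0.44 for KIF4A (SE 0.08, adjusted p = 0.00185) and by 0.27 for KIF22 (SE 0.08, adjusted p = 0.0246) on the log2 scale, and none was called without it (adjusted p from 0.537 to 0.773). The blocked call of KIF22 was lost without any 1 of 6 libraries, which were T24 siNC replicates 1 and 3, UM-UC-3 siNC replicates 1 and 3, and replicate 3 of UM-UC-3 siACAT1-1 and siACAT1-2, with an adjusted p of up to 0.161.

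Among the kinesins of cytokinesis, KIF20A (MKLP2), which carries the chromosomal passenger complex to the midzone, had the largest mean difference from siNC of the 13 mitotic kinesins tested. In T24 cells it stood at 27.2, 7.05 and 26.6 RPKM with siNC, at 11, 1.31 and 12.4 with siACAT1-1 and at 12.8, 1.47 and 16.9 with siACAT1-2. In UM-UC-3 it stood at 70.4, 79.3 and 51.2 with siNC, at 54.9, 78.2 and 24.6 with siACAT1-1 and at 66.5, 64.3 and 22.8 with siACAT1-2. The siNC library of T24 replicate 2 was thus lower than the knockdown libraries of T24 replicates 1 and 3, and within a number each T24 knockdown library lay below its siNC library. The mean log2 fold change of KIF20A was -0.75 (SE 0.47, adjusted p = 0.615) without the block and -0.99 (SE 0.14, adjusted p = 0.000114) with it.

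KIF14, needed for the last steps of cytokinesis with citron kinase, stood in T24 cells at 7.99, 5.89 and 7.39 RPKM with siNC, at 4.56, 2.99 and 4.46 with siACAT1-1 and at 4.29, 2.201 and 6.40 with siACAT1-2, and the siACAT1-1 group lay wholly below siNC. In UM-UC-3 cells it stood at 6.70, 5.70 and 4.26 with siNC, at 7.32, 5.73 and 3.46 with siACAT1-1 and at 5.68, 4.66 and 3.26 with siACAT1-2. KIF23 (MKLP1), which forms centralspindlin with RACGAP1, stood in T24 cells at 17.7, 10.02 and 12.96, then at 11.1, 6.23 and 9.50 and at 12.7, 5.29 and 13.1. In UM-UC-3 cells KIF23 stood at 46.7, 48.8 and 33.7, then at 51.2, 47.5 and 30.4 and at 38.1, 41.1 and 29.0. With the block KIF14 fell by 0.51 (SE 0.09, adjusted p = 0.00161) and KIF23 by 0.33 (SE 0.08, adjusted p = 0.00838), and without it their adjusted p was 0.443 and 0.637. KIF20B (MPP1), which acts in abscission, had -0.30 without the block (SE 0.20, adjusted p = 0.652) and fell by 0.29 with it (SE 0.08, adjusted p = 0.0264). That call was lost without any 1 of 6 libraries, which were UM-UC-3 siNC replicates 1, 2 and 3, UM-UC-3 siACAT1-2 replicate 2 and T24 siNC replicates 1 and 2. KIF20B lay below the siNC library of its number in 6 of 6 pairs in T24 and in 2 of 6 in UM-UC-3.

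**Figure D1:**
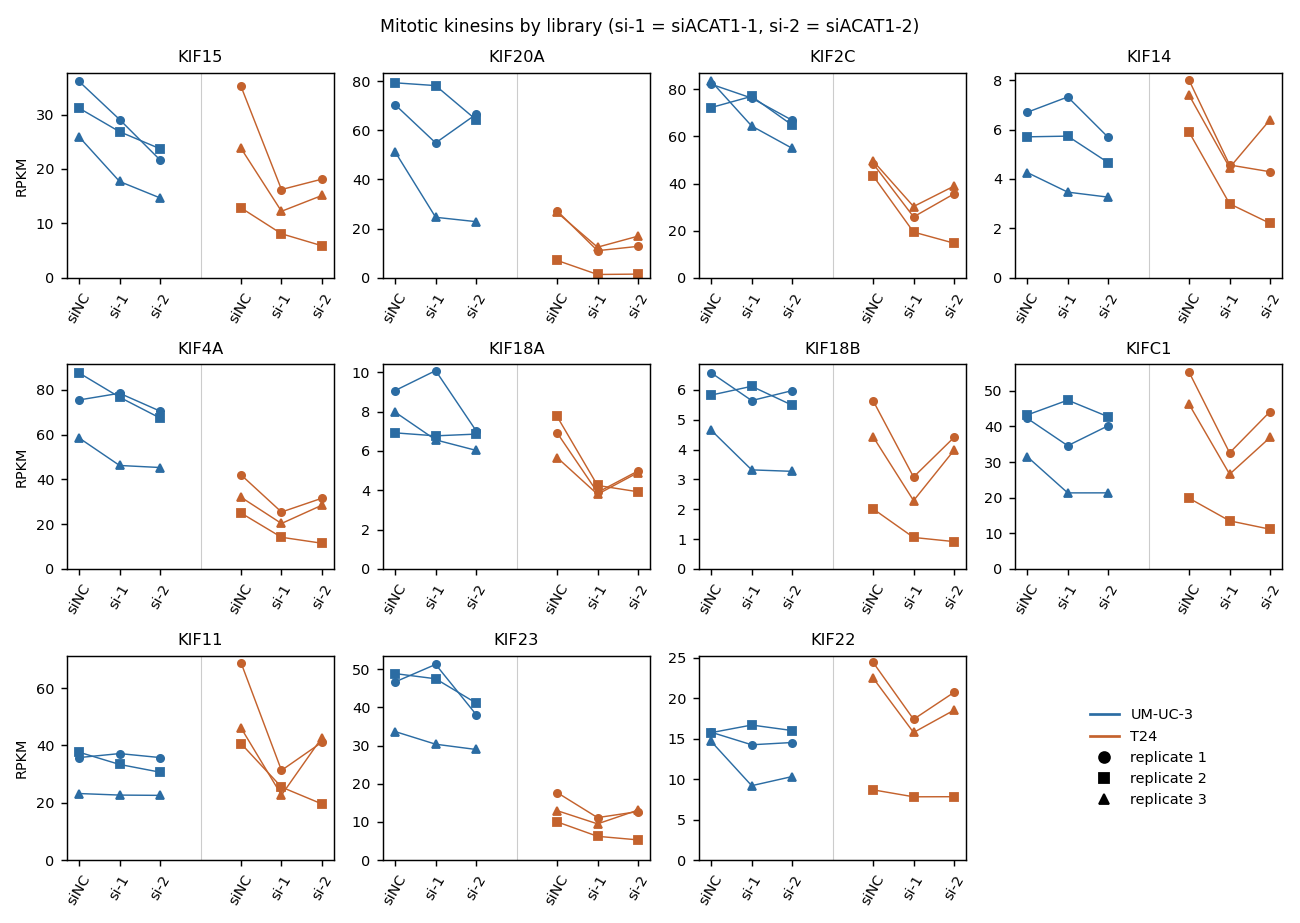
RPKM (linear axis from 0) of 11 mitotic kinesins in the 18 libraries, with UM-UC-3 on the left and T24 on the right of each panel, a marker for each replicate number and lines that join libraries of the same number. Lines of T24 cells slope down from siNC to siACAT1-1 in each panel, and replicate 2 of T24 and replicate 3 of UM-UC-3 lie below the other numbers in most panels.

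Single comparisons differed in how many kinesins passed. Against siNC in T24 cells, siACAT1-1 gave 0 called kinesins without the block (0.124% of all genes) and 13 with it (13.9% of all genes). Of these 12 were lower (7.31% of all genes), 11 mitotic kinesins and KIF24, a regulator of ciliogenesis, and KIF21B was higher (6.59%). The second siRNA in T24 cells gave 1 called kinesin without the block (0.268% of all genes), KIF5C, which was lower (0.164%), and 13 with it (8.48%). Of these 10 were lower (3.93%), 9 mitotic kinesins and KIF5C, and KIF3C, KIFC3 and KIF5A were higher (4.55%). That count was 5 without T24 siNC replicate 1 and 8 without replicate 1 or 2 of T24 siACAT1-2. In UM-UC-3 cells siACAT1-1 gave 0 with and without the block (3.06% and 0.00993% of all genes), and siACAT1-2 gave 0 without it (0.0546%) and 2 with it (1.36%), KIF15 lower (0.720% of all genes) and KIFC2 higher (0.635%).

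Kinesins with an unadjusted p under 0.05 without the block numbered 8 for siACAT1-1 and 5 for siACAT1-2 in T24, and 1 and 2 in UM-UC-3. Of the 20144 genes tested, 2325 and 1700 passed that limit in T24 and 1075 and 777 in UM-UC-3, in the same order of siRNAs. The median log2 fold change of the 13 mitotic kinesins was -0.13 for siACAT1-1 and -0.31 for siACAT1-2 in UM-UC-3, and -0.76 and -0.53 in T24. Comparisons within a line share their siNC libraries. KIF15 in UM-UC-3 had a log2 fold change of -0.67 with siACAT1-2 (SE 0.42), which passed with the block (-0.69, SE 0.13, adjusted p = 0.00828) and in 14 of 18 blocked refits with a single library removed. The blocked count of 2 became 0 without replicate 1 of UM-UC-3 siNC or siACAT1-2, and 1 without UM-UC-3 siNC replicate 2 or 3 or siACAT1-2 replicate 3.

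The difference between the lines was tested as UM-UC-3 minus T24. For 12 of the 13 mitotic kinesins it was positive, a larger difference from siNC in T24, with a median of 0.42 without the block and 0.44 with it. By edgeR 0 of the 37 kinesins were called in this contrast in either fit, where 0% of all genes were called without the block and 0.104% with it, and DESeq2 called 0. The count at an unadjusted p under 0.05 was 0 without the block and 13 with it, 10 of them mitotic. Over all 20144 genes it was 517 without the block and 1905 with it. The lowest adjusted p of a kinesin with the block was 0.233, that of KIF11 (0.65, SE 0.19). A difference between the lines was thus not resolved for any single kinesin. Without T24 siACAT1-2 replicate 3 the blocked count was 3, and without T24 siACAT1-1 replicate 2 it was 1.

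**Figure D2:**
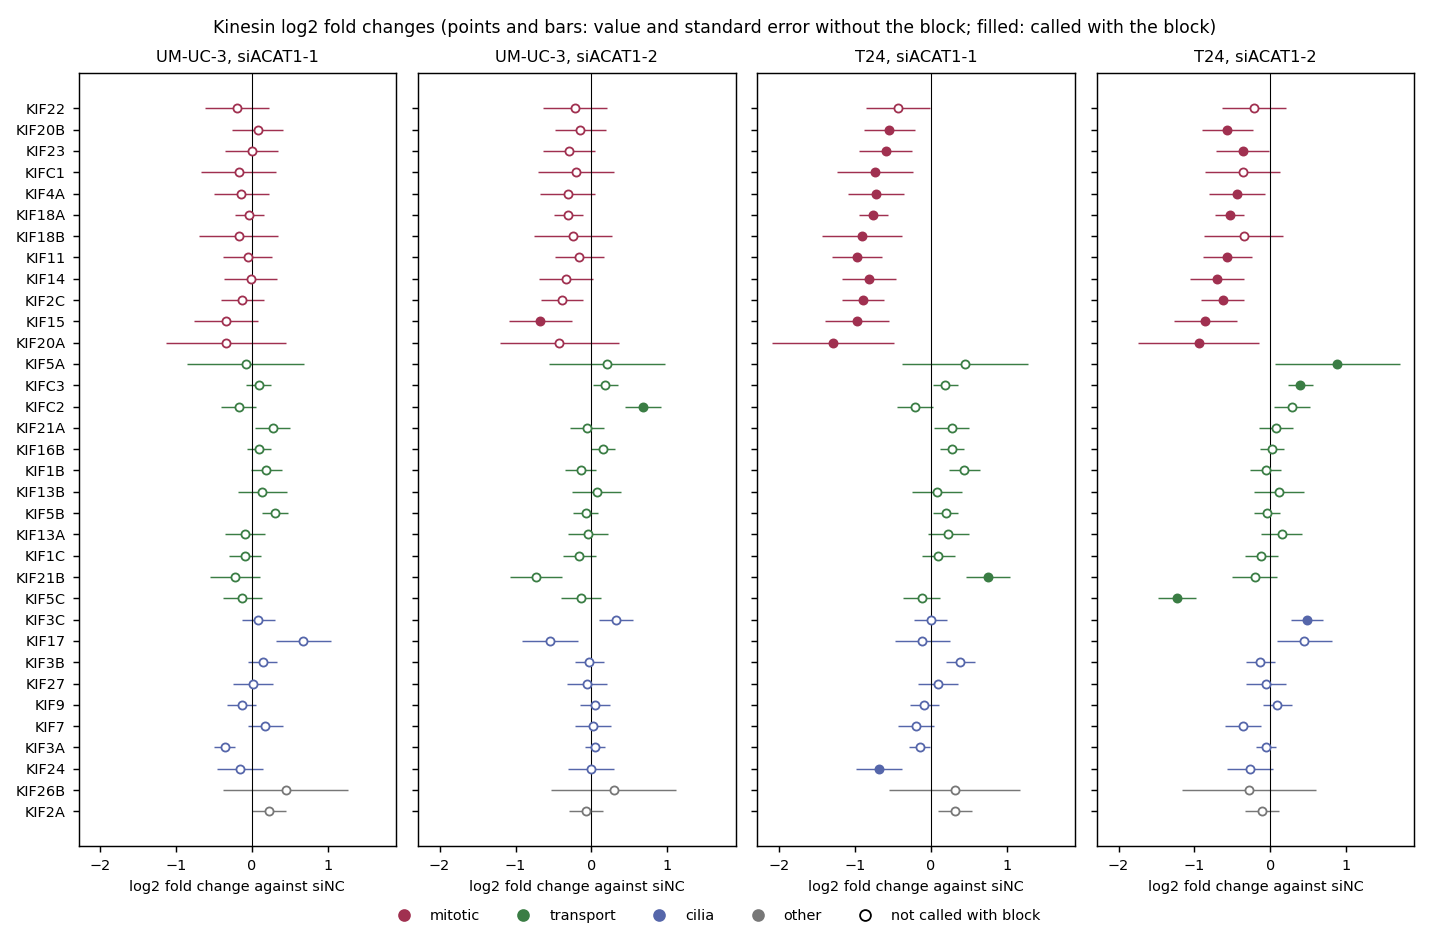
Log2 fold change against siNC of 34 tested kinesins in the 4 comparisons, with the SE of the fit without the block, ordered by role. KIF26A, KIF6 and KIF4B are left out for low counts. Filled points passed an adjusted p under 0.05 with the block, 11 mitotic kinesins in T24 with siACAT1-1, 9 in T24 with siACAT1-2 and KIF15 in UM-UC-3 with siACAT1-2. Also filled are KIF24 and KIF21B in T24 with siACAT1-1, KIF5C, KIF3C, KIFC3 and KIF5A in T24 with siACAT1-2 and KIFC2 in UM-UC-3 with siACAT1-2.

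Log2 CPM was taken from counts scaled to the library total times its TMM normalization factor, with a prior count of 2. Over the 9 libraries of a line, the number took a median of 79.6% of the variance of log2 CPM of the 13 mitotic kinesins in UM-UC-3 and 64.5% in T24. The siRNA took 14.3% and 26.2%. The lowest library of all 3 groups was replicate 3 for 10 of the 13 in UM-UC-3, where this held for 17.9% of all genes, and replicate 2 for 9 of the 13 in T24, where it held for 20.1% of all genes. KIF22 in T24 was an extreme, with 93.7% of its variance between numbers and 5.07% between siRNAs. KIF18A in T24 was the opposite, with 5.99% and 77.2%. What a number stands for is not stated by the labels, and its part in the results beyond the block was not tested.

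Over both siRNAs, the median log2 ratio of the mitotic kinesins to the siNC library of the same number was -0.179, -0.151 and -0.365 in UM-UC-3 replicates 1, 2 and 3 and -0.653, -0.886 and -0.432 in T24. For each siRNA apart it was negative in 11 of the 12 knockdown libraries, and in UM-UC-3 siACAT1-1 replicate 2 it was 0.0303, with 8 of the 13 above siNC. Without the 3 T24 libraries numbered 2 the block called 15 kinesins in the mean of the 4 comparisons, and without the 3 UM-UC-3 libraries numbered 3 it called 8, all mitotic. The 4 mitotic kinesins lost there were KIF20B and KIF22, KIF23 and KIFC1, the last 3 with an adjusted p of 0.198, 0.0502 and 0.0527. Without the block, leaving out the T24 libraries numbered 2 gave 2 calls, KIF15 and KIF2C. The share of all genes called was not counted in these fits with libraries left out.

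**Figure D3:**
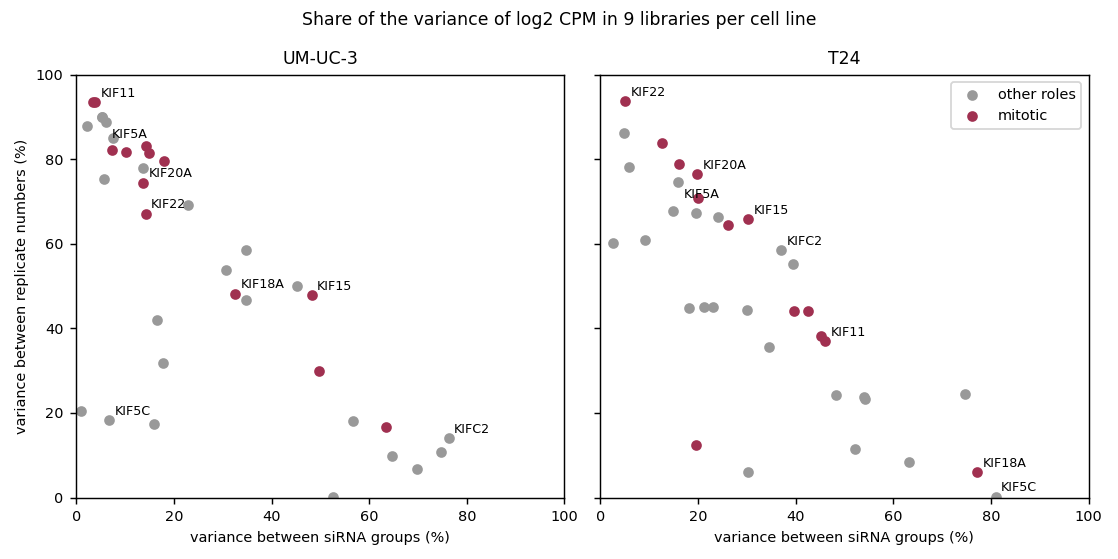
Share (%) of the variance of log2 CPM that lay between siRNA groups (horizontal) and between replicate numbers (vertical) in the 9 libraries of each line, 1 point for each tested kinesin except KIF26A. The mitotic kinesins had medians of 79.6% between numbers in UM-UC-3 and 64.5% in T24, and KIF18A and KIF5C in T24 lie at the lower right.

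Genes that work with the mitotic kinesins were counted from a list. A set of 29 spindle and cytokinesis genes without a kinesin motor gave 0 calls without the block in the mean of the 4 comparisons (0.223% of all genes), with 29 of 29 negative and a median of -0.43, and 27 were called lower with it (6.46% of all genes). They include ECT2, the RhoA activator of cytokinesis (-0.40, adjusted p = 0.224, 0.000361 with the block), the mitotic cyclin CCNB1 (-0.72, adjusted p = 0.276, 4.8e-05 with the block) and TPX2, a spindle assembly factor (-0.44, adjusted p = 0.285, 0.00146 with the block). CENPE, a kinesin of the kinetochore whose symbol lies outside the rule, had -0.65 (SE 0.14, adjusted p = 0.0652), and passed with the block (adjusted p = 0.000112). It was the only 1 called of 3 listed kinesins outside the rule. All 3 were negative, with a median of -0.323 without the block and -0.28 with it. Summed over genes, the RPKM of the mitotic kinesins ran from 310.0 to 390.4 in T24 siNC replicates 3 and 1 and was 221.7 in replicate 2, and the spindle list ran from 1227 to 1472 and was 901.3 in replicate 2, so both sums were low in the same library.

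The 24 other kinesins tested had a median of 0.09 in the mean of the 4 comparisons, with 9 of 24 negative. They gave 0 calls without the block and 2 of 24 with it, beside 12.4% of all genes called and 5.95% called higher, so the share is near that of all genes. These were KIF3C, a subunit of kinesin-2 (0.23, SE 0.07, adjusted p = 0.0389), and KIFC3, a minus-end motor of the Golgi and cell junctions (0.22, SE 0.07, adjusted p = 0.0451), both higher. With a single library removed KIF3C stayed called in 6 of 18 blocked refits and KIFC3 in 4 of 18. KIF5B, the kinesin-1 heavy chain of most cells, had 0.09 (SE 0.10), KIF1C, a carrier of vesicles and integrins, had -0.07 (SE 0.13), and the kinesin-2 subunits KIF3A and KIF3B had -0.13 (SE 0.08) and 0.09 (SE 0.12).

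Proteins that work with transport motors were counted beside all genes, of which 0.223% were called without the block and 5.95% higher and 6.46% lower with it. Of 18 kinesin adaptors tested from a list of 21, 0 were called without the block and 6 were called higher with it, led by the kinesin light chain KLC1 (0.33, SE 0.08, adjusted p = 0.110, 0.00184 with the block), the mitochondrial adaptor TRAK2 (0.28, adjusted p = 0.0234 with the block) and RAB6A, a Golgi GTPase (0.26, adjusted p = 0.00748 with the block). Of 25 dynein and dynactin genes, which move cargo the other way, 0 were called without the block, and 5 were higher and 2 lower with it. Of 17 tubulins, 0 and 1 were called, the latter being TUBA1B (-0.39, adjusted p = 0.00673 with the block).

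The siRNAs were also compared directly with each other. In siACAT1-2 minus siACAT1-1 over both lines, 1 kinesin was called without the block (2.56% of all genes), higher with siACAT1-2 (1.18%). With the block 10 were called (20.6% of all genes), 4 higher (10.4%) and 6 lower (10.2%) with siACAT1-2. None of the 13 mitotic kinesins was among them, and their lowest adjusted p with the block was 0.199. At an unadjusted p under 0.05 they numbered 0 in either fit, beside 3369 of 20144 genes without the block and 6633 with it. Mitotic kinesins were called in 3 blocked refits, KIF18B without T24 siACAT1-2 replicate 2, KIF14 and KIF20B without T24 siACAT1-2 replicate 3, and KIF11 and KIF18B without the 3 T24 libraries numbered 2. Mitotic against other kinesins was not tested. DESeq2 without the block called 3 kinesins, KIFC2, KIF5C and KIF21B.

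KIFC2, a minus-end-directed kinesin known from neurons, was the gene called in both fits. In UM-UC-3 cells it stood at 4.49, 5.14 and 7.47 RPKM with siNC, at 4.10, 5.61 and 5.34 with siACAT1-1 and at 9.02, 9.17 and 9.98 with siACAT1-2, so that the siACAT1-2 group lay wholly above the others. In T24 cells it stood at 3.75, 3.89 and 5.51, at 3.36, 3.00 and 4.93 and at 5.06, 4.40 and 6.24, with overlap between the groups. The difference was 0.67 (SE 0.17, adjusted p = 0.0411) without the block and 0.69 (SE 0.10, adjusted p = 6.04e-05) with it. KIFC2 shares 791 exon bases (17.8%) with FOXH1 on the opposite strand, and since the strand setting of the counting is not given in the sources used here, reads of the pair cannot be told apart with certainty. FOXH1 had 63 to 251 counts, and its difference between the siRNAs was 0.80 (SE 0.24, adjusted p = 0.0836), or 0.83 (SE 0.15, adjusted p = 0.000725) with the block, in the direction of KIFC2. Without the block KIFC2 stayed called in 7 of 18 refits with a single library removed (adjusted p up to 0.133), and with the block in 18 of 18. Against siNC in UM-UC-3, siACAT1-2 gave 0.71 with the block (SE 0.13, adjusted p = 0.00828), called in 15 of 18 such refits.

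KIF5C, a kinesin-1 heavy chain of neurons, was called in T24 cells with siACAT1-2 against siNC in both fits. It stood at 2.42, 2.10 and 2.61 RPKM with siNC, at 2.39, 1.86 and 2.24 with siACAT1-1 and at 0.665, 1.50 and 0.891 with siACAT1-2, the last wholly below the others. Its log2 fold change was -1.23 (SE 0.25, adjusted p = 0.0479), and -1.24 with the block (SE 0.22, adjusted p = 0.00134). In UM-UC-3 cells KIF5C stayed between 0.182 and 0.323 RPKM in all 9 libraries. Without the block KIF5C stayed called in 4 of 18 refits with a single library removed, those without a T24 library numbered 2 or UM-UC-3 siACAT1-1 replicate 3, with an adjusted p from 0.0088 to 0.265. With the block it was called in 18 of 18, and in a fit of the T24 libraries alone its adjusted p was 0.291.

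The other 8 kinesins were called by edgeR with the block alone. KIF21B, a neuronal motor that slows microtubule growth, stood in T24 cells at 0.375, 0.552 and 0.608 RPKM with siNC, at 0.660, 0.892 and 0.994 with siACAT1-1 and at 0.314, 0.508 and 0.490 with siACAT1-2, so siACAT1-1 lay wholly above the others, and its difference was -0.73 (SE 0.16, adjusted p = 0.00279). KIF3C stood there at 3.66, 5.80 and 6.51 with siNC, at 4.40, 5.51 and 5.81 with siACAT1-1 and at 4.98, 7.60 and 9.44 with siACAT1-2, and its difference was 0.35 (SE 0.08, adjusted p = 0.00446). KIF1B, a carrier of mitochondria and synaptic vesicle precursors, had -0.40 (SE 0.10, adjusted p = 0.00975), KIF5B had -0.31 (SE 0.08, adjusted p = 0.0118), and KIF2A, a depolymerase of neurons and spindle poles, had -0.35 (SE 0.09, adjusted p = 0.0113). The kinesin-2 partners KIF3A and KIF3B had differences of opposite sign, at 0.25 (SE 0.08, adjusted p = 0.0315) and -0.35 (SE 0.10, adjusted p = 0.0141). Mean RPKM of KIF3A with siACAT1-1 and siACAT1-2 was 8.90 and 12.1 in UM-UC-3 but 9.55 and 10.2 in T24. That of KIF3B was 14.8 and 10.3 in T24 but 9.49 and 8.63 in UM-UC-3, so the larger differences lay in different lines. KIF5A, a neuronal kinesin-1, had 0.54 (SE 0.17, adjusted p = 0.0323), and KIF5C, of the 10 called, had -0.56 (SE 0.17, adjusted p = 0.0265). The blocked count of 10 became 5 without T24 siACAT1-2 replicate 1 or UM-UC-3 siACAT1-1 replicate 1, and 6 without T24 siACAT1-1 replicate 1 or UM-UC-3 siACAT1-2 replicate 2.

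**Figure D4:**
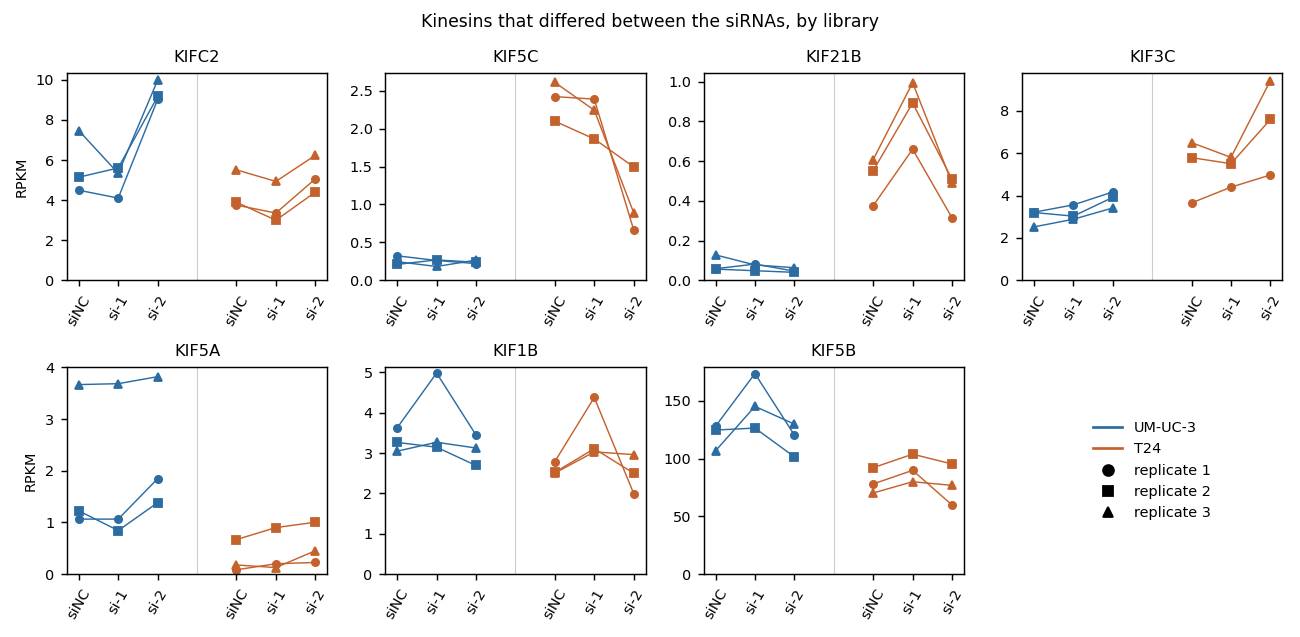
RPKM (linear axis from 0) in the 18 libraries of 7 of the 10 kinesins that differed between the siRNAs with the block, drawn as for the mitotic kinesins. KIFC2 is highest with siACAT1-2 in UM-UC-3 (9.02 to 9.98), KIF5C is lowest with siACAT1-2 in T24 (0.665 to 1.50), and KIF5A is highest in replicate 3 of each UM-UC-3 group and replicate 2 of each T24 group.

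In control cells the lines differed in their kinesins about as often as in other genes. UM-UC-3 siNC against T24 siNC gave 16 called kinesins of 37 (44.3% of all genes were called), 8 higher (22.0%) and 8 lower (22.3%) in UM-UC-3. With the block 26 were called (61.7% of all genes), 14 higher (31.6%) and 12 lower (30.2%). The number pairs libraries only within a line, so in this contrast the block takes replicate spread out of the error and pairs nothing. Its p-values here are therefore likely too small. Per length, KIF5B was the most abundant kinesin in both lines, at 119.9 ± 11.5 RPKM in UM-UC-3 and 80.2 ± 11.1 in T24 (mean ± SD, n = 3), and its range did not overlap with the next in either line. KIF2C (79.3 ± 6.10), KIF4A (73.9 ± 14.6) and KIF20A (67.0 ± 14.4) followed in UM-UC-3, with overlapping ranges, and KIF1C (55.8 ± 5.94), KIF11 (51.9 ± 15.0) and KIF2C (47.1 ± 3.37) followed in T24, also with overlap.

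Higher in UM-UC-3 were KIF5A (log2 difference 2.76, SE 0.84, adjusted p = 0.0138), KIF13A, a motor of endosomal and Golgi cargo (1.90, SE 0.28, adjusted p = 3.65e-05), KIF23 (1.70, SE 0.36, adjusted p = 0.001), KIF4A (1.20, SE 0.37, adjusted p = 0.0142) and KIF21A, which slows microtubule growth at the cell cortex (0.94, SE 0.23, adjusted p = 0.00316). KIF26A, of a family without ATPase activity, stood at 0.451, 0.747 and 0.287 RPKM in UM-UC-3 siNC and had no count in the 3 T24 siNC libraries, so it was at least 33.4-fold higher in UM-UC-3 against a floor of 3 counts per library. KIF5A stood at 1.06, 1.22 and 3.67 RPKM in UM-UC-3 and at 0.0835, 0.669 and 0.177 in T24, and its groups did not overlap although its replicates spread widely.

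Lower in UM-UC-3 were KIF5C (-3.15, SE 0.27, adjusted p = 9.92e-08), KIF21B (-2.61, SE 0.32, adjusted p = 5.83e-06), KIFC3 (-1.08, SE 0.17, adjusted p = 6.86e-05), KIF7, a regulator of Hedgehog signalling at the tip of the cilium (-0.9999, SE 0.24, adjusted p = 0.0026), and its close relative KIF27 (-0.81, SE 0.27, adjusted p = 0.0213). KIF6, of motile cilia, had -3.10 (SE 1.12, adjusted p = 0.0336), with at most 29 counts in any library. The 3 kinesin-1 heavy chains thus had 3 patterns, KIF5B high in both lines, KIF5A higher in UM-UC-3 and KIF5C higher in T24.

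**Figure D5:**
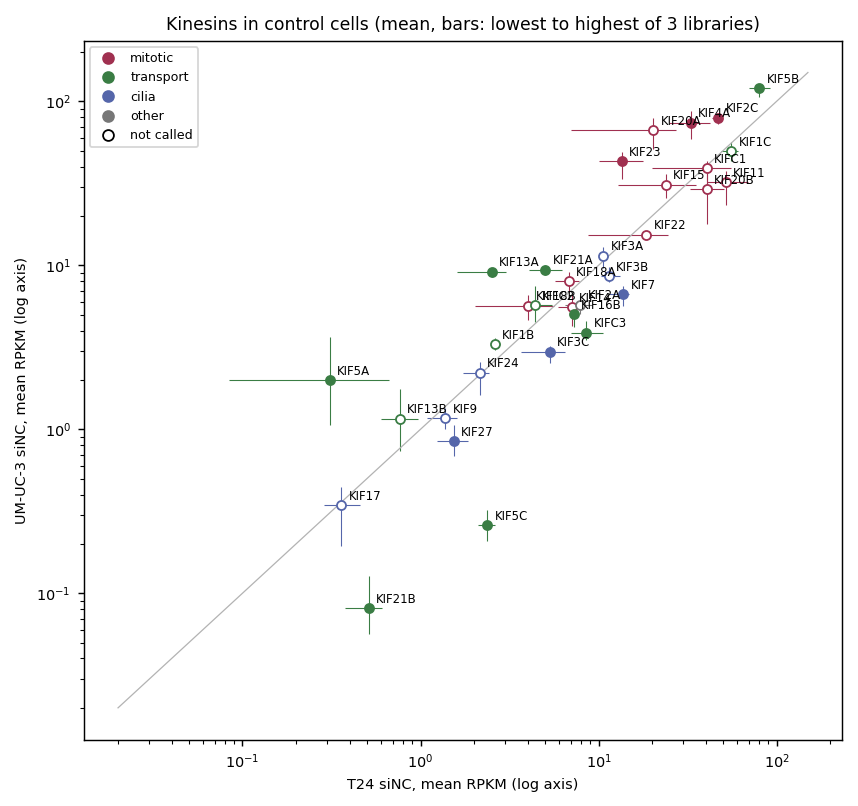
Mean RPKM of 33 tested kinesins in siNC cells of T24 (horizontal) and UM-UC-3 (vertical), both on log axes, with bars from the lowest to the highest of the 3 libraries and a line of equal level. KIF26A, KIF26B, KIF6 and KIF4B are left out for low counts. Filled points passed the test without the block, KIF5A and KIF13A lie furthest above the line and KIF5C and KIF21B furthest below.

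The 5 kinesins left untested had at most 6 counts in any library. They were KIF2B, a mitotic depolymerase, KIF1A, a carrier of synaptic vesicle precursors, KIF19, which sets the length of motile cilia, KIF12 and KIF25. Among the remaining kinesins, KIF13B, KIF16B, KIF17, KIF9 and KIF26B were not called against siNC or between the siRNAs in either fit, and KIF24 was called in 1 comparison. KIF26A had no count in 8 of the 9 T24 libraries, so no fold against siNC is given there. KIF4B, an intronless relative of KIF4A, had 0 to 18 counts, and reads of so close a copy may have been split, so its value (-0.11, SE 0.49) is uncertain. Exons of KIF22, KIFC1 and KIF7 share 13%, 12.7% and 11.8% of their bases with genes on the opposite strand, and those of KIF2C share 4.8%. KIF20A shares 3.34% with BRD8, which reached 11899 counts, and 1.72% with CDC23, which reached 2938, both on the opposite strand.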

How the data were processed

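RNA from 18 cell line libraries was prepared by the authors with a stranded mRNA kit with molecular identifiers and sequenced on a NovaSeq instrument. Reads were trimmed with Trimmomatic 0.36 and aligned with STAR 2.5.3 to GRCh38, and exon reads were counted with featureCounts (Subread 1.5.1). The authors deposited whole-number counts per gene and RPKM values computed from them, and RPKM recomputed from the counts differed by at most 4.36e-06. The annotation release, the strand and multimapping settings and whether identifiers were collapsed are not given in the sources used here. Of the counts from 1 to 10, 74.4% were even.

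Counts were fitted with edgeR 4.0.16 (quasi-likelihood test, TMM factors, filterByExpr by group) in R 4.3.3, with 1 coefficient for each of 6 groups and Benjamini-Hochberg adjustment over 20144 genes. SE is the log2 fold change divided by the square root of F. Alternatives were DESeq2 1.42.0, median-of-ratios factors, no filter, 1 line alone, each library left out, a replicate block and, chosen after seeing the data, leaving out T24 libraries numbered 2 or UM-UC-3 libraries numbered 3. The fit was tested on simulated data. The p-values measure only the spread between these libraries.

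The replicate numbers come from the labels, which do not say what they mark. Deviations from the group means correlated between libraries of the same number at 0.115 to 0.576 in UM-UC-3 and 0.356 to 0.686 in T24 (9 pairs each), and between other numbers at -0.545 to 0.269 and -0.567 to 0.21 (18 pairs each), so the numbers were taken to pair the libraries. Deviations cancel within each group, so positive values at the same number by themselves make those at other numbers negative on average. The negative values are thus not separate support for pairing. Pairing was weakest for UM-UC-3 replicate 1, at 0.169, 0.115 and 0.143. Its siACAT1-2 library correlated at 0.22 with siNC replicate 2 and at 0.269 with siACAT1-1 replicate 2. Kinesins, roles, gene lists and motifs were chosen with earlier results of these data known. Values by library are given for ACAT1 and the kinesins with the lowest blocked p in the mean of the 4 comparisons, values by comparison for called kinesins, and up to 6 kinesins of the largest difference each way for the lines. KIFC2, KIF5C, KIF21B, KIF3C and KIF5A by library, and the uncalled transport motors, were chosen after their values were seen.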

Additional observations from a re-analysis of the deposited data

How the results depend on the processing

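Under the alternatives run, neither the log2 fold changes of the 11 mitotic kinesins given by library, KIF5C in T24 and KIFC2 nor the medians of the mitotic and other kinesins in the mean of the 4 comparisons changed sign. The median of the mitotic kinesins in the siRNA difference, near 0, was 0.00187 without the block and -0.013 with it. Kinesin counts moved as follows with the replicate block, the pairing by number. The mean of the 4 comparisons went from 0 to 14, siACAT1-1 in T24 from 0 to 13, siACAT1-2 in T24 from 1 to 13, siACAT1-2 in UM-UC-3 from 0 to 2, the siRNA difference from 1 to 10 and the lines, between which the number pairs no libraries, from 16 to 26. With the block and 1 library left out they ranged from 10 to 16, 9 to 15, 5 to 15, 0 to 2, 5 to 12 (7 without UM-UC-3 siACAT1-1 replicate 2) and 21 to 27 (25 without T24 siNC replicate 2), and the difference between lines from 0 to 3. Without the block and 1 library left out, siACAT1-1 in T24 ranged from 0 to 1 (1 without T24 siACAT1-2 replicate 2), siACAT1-2 in T24 from 0 to 1, the siRNA difference from 0 to 2 and the lines from 12 to 18. With the block and the T24 libraries numbered 2 left out, the counts were 15, 14, 8, 2, 13 and 26, and 1 for the difference between lines. With the block and the UM-UC-3 libraries numbered 3 left out they were 8, 14, 11, 1 and 9 for the first 5. Without the block, leaving out the former gave 2 for the mean of the 4 comparisons, 1 for siACAT1-1 in T24 and 2 for the siRNA difference, and leaving out the latter gave 0 for siACAT1-2 in T24 and 0 for the siRNA difference. No filter on low counts gave 3, 6 and 3 for the mean, siACAT1-1 in T24 and siACAT1-2 in T24, DESeq2 gave 1 for siACAT1-1 in T24 and 3 for the siRNA difference, and T24 libraries alone gave 0 for siACAT1-2 in T24. The cause of these moves was not tested. The mitotic median stayed between -0.531 and -0.271 with 1 library left out. With 3 libraries per group most calls of mitotic kinesins were made with the block, and those without it came with no filter, with DESeq2 (KIF18A with siACAT1-1 in T24) or with libraries left out. KIF6 (at most 29 counts) and KIF4B (at most 18) are too low for a firm fold.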
